A study of Mus musculus with 2 samples.

Results

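The genes that build the mitotic spindle and separate the chromosomes were examined in RAW264.7 cells, an established mouse macrophage line that can form osteoclasts, after transfection with *Flcn* siRNA or scramble siRNA. The set holds 56 genes in 8 groups by role, which are cyclins and mitotic kinases, checkpoint and anaphase genes, the chromosomal passenger complex, kinetochore genes, mitotic kinesins, spindle proteins, condensin with topoisomerase, and cytokinesis genes. The 56 genes were chosen by their known roles and on signals of these same 2 arrays, so that their direction is given as a description and is no independent evidence. Of the 56, 55 are named by a probe set among the 18193 genes of the table, and 54 passed the filter on low signals (a geometric mean of at least 13.2 over both arrays), among 10285 genes that did so. *Ccnb1* has no probe set in the annotation used and is not analysed here, and the kinesin *Kif15* lay under the filter, with signals of 10.0 (*Flcn* siRNA) and 4.1 (scramble siRNA).

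Both transfected cultures had their medium changed 24 hr after transfection to MEMα with 10% FCS, and RNA was collected after 48 hr more. Each condition was hybridised to 1 Affymetrix Mouse Genome 430 2.0 array, and neither the labels nor the array methods name RANKL, the cytokine that drives osteoclast formation. The knockdown was transient, the cells came from 1 line, and siRNA, culture and array cannot be told apart. There was no replicate check, no p-value was computed, and “called higher” or “called lower” means a difference of at least 1.5-fold in size and nothing more. *Flcn* itself had signals of 145.4 and 206.2 at its probe sets on the *Flcn* siRNA array, against 208.6 and 240.9 on the scramble siRNA array, which fell short of 1.5-fold at both (log2 ratios -0.52 and -0.22). *Gpnmb*, which Tfe3 activates, was at 2500 with *Flcn* siRNA and 294.3 with scramble siRNA. The defining macrophage genes *Lyz2*, *Csf1r* and *Cd68* were bright on both arrays, and none of 9 macrophage markers passed 1.5-fold. None of 4 T cell and 4 B cell markers named by a probe set passed the filter. The fibroblast marker *Col1a2* (12.7 with *Flcn* siRNA and 18.3 with scramble siRNA) passed it with signals close to it. So did the epithelial marker *Epcam* (12.7 with *Flcn* siRNA and 14.8 with scramble siRNA), and the other fibroblast and epithelial markers did not pass.

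In mitosis, cyclin B with Cdk1 sets off the entry into division, condensins compact the chromosomes, and kinetochores assembled on centromeric chromatin attach them to the microtubules of the spindle. The spindle assembly checkpoint holds back the anaphase-promoting complex until attachment is complete, after which separase cleaves cohesin and the cell divides in the plane set by the central spindle. Most of these genes are transcribed late in the cell cycle, towards and during division. Many of their promoters hold the cell cycle genes homology region (CHR), an element bound by MuvB complexes, and CCAAT boxes, which bind NF-Y.

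Signals of the mitotic genes were higher on the *Flcn* siRNA array for 51 of the 54 measured members, against 51.7% of all measured genes. The differences of the 51 members were modest. The 10 that reached 1.5-fold were the checkpoint kinase genes *Ttk* and *Bub1*, the kinetochore genes *Nuf2*, *Cenpm*, *Cenpi*, *Cenph* and *Spc25*, the motor gene *Kif11*, the cyclin gene *Ccna2* and the kinase gene *Aurkb*. These 10 members were 18.5% of those measured, where 5.85% of all measured genes were called higher. No member was called lower, where 5.52% of all measured genes were, and 41 members lay between 0 and the threshold. The median log2 ratio was 0.41, or 1.33-fold, with quartiles of 0.16 and 0.53, against a median of 0.01 over all measured genes. The highest member was *Ttk* at 1.76-fold, and the lowest was *Mad2l1* with a log2 ratio of -0.48. Only *Mad2l1*, *Cdc20* and *Cenpq* lay below 0 with the deposited scaling. When the 2 arrays were scaled to equal medians instead, *Plk1*, *Anln* and *Cenpa* lay below 0 as well, and 88.9% of the members were above it. The median log2 ratio over all measured genes was then -0.07. That scaling left 6 of the 10 calls, with 4.06% of all measured genes called higher, and *Aurkb*, *Ccna2*, *Cenph* and *Spc25* fell short of 1.5-fold. In a bulk culture, more dividing cells and more RNA per dividing cell cannot be told apart. The paper counted viable cells in medium with RANKL and reports no faster growth after knockdown. The share of dividing cells in the array cultures was not tested.

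Signals of the measured members ran from 127.3 to 1802 with *Flcn* siRNA and from 82.7 to 1610.9 with scramble siRNA (medians 361.35 with *Flcn* siRNA and 305.3 with scramble siRNA). All therefore lay well over the array medians of 13.6 with *Flcn* siRNA and 12.8 with scramble siRNA, to which lower signals were raised. Dimmer members still tended to have larger log2 ratios. The Spearman rank correlation of signal with log2 ratio was -0.34 over the members and -0.05 over all measured genes. Where a gene had several probe sets over the filter, the SD of its log2 ratio between them had a median of 0.18 over 32 members and 0.19 over 5034 genes. This spread lies within the same 2 arrays and is no replicate error. Ratios of 15 members lay within 0.2 of 0 and are of the size of that spread. Among genes tied to osteoclasts, *Ctsk* (signal 58.4 with *Flcn* siRNA and 17.2 with scramble siRNA) and *Atp6v0d2* (119.3 with *Flcn* siRNA and 43 with scramble siRNA) were past 1.5-fold and *Acp5* (115.6 with *Flcn* siRNA and 90.8 with scramble siRNA) was not, while *Mmp9*, *Calcr* and *Oscar* lay under the filter. Their part in the mitotic signals was not tested.

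**Figure D1:**
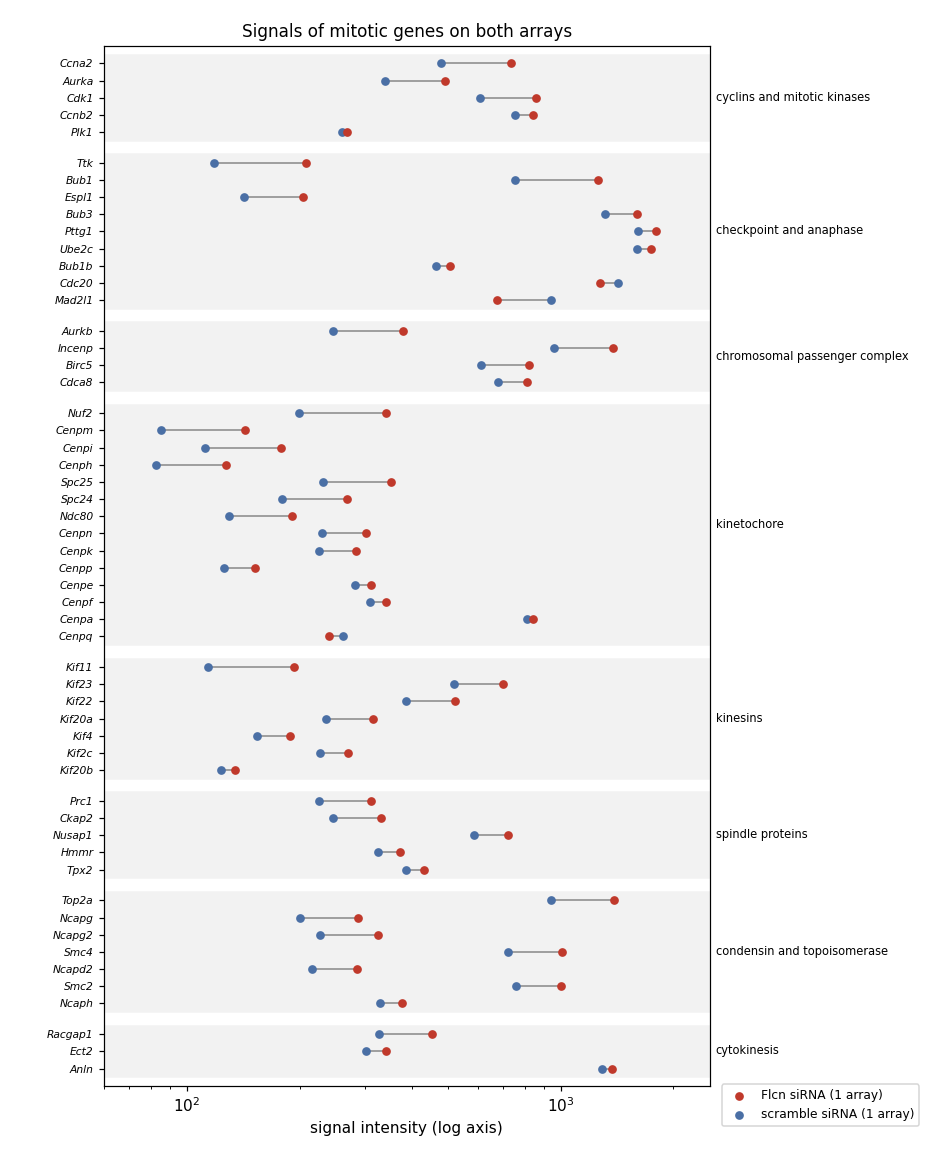
Signal intensity (log axis) of the 54 measured mitotic genes at their brightest probe set on the *Flcn* siRNA array (red) and the scramble siRNA array (blue), 1 array each, by role and ordered within each role by log2 ratio. The red point lies to the right of the blue one for 51 genes, and to its left for *Mad2l1*, *Cdc20* and *Cenpq*.

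Promoter sequences were looked at as a further description of the genes. The genes were chosen by mitotic role, and promoters of such genes are known for these elements. Shares of members with an element therefore follow from that choice and say nothing about *Flcn* siRNA. RefSeq windows of GRCm38.p6, from 250 bases before to 50 bases after the annotated start, were at hand for 49 of the 56 members. The 7 without one here were *Ccna2*, *Aurkb*, *Incenp*, *Spc24*, *Kif20a*, *Tpx2* and *Smc4*. Letters searched on both strands were TTTGAA or TTCGAA for the CHR, CCAAT for the CCAAT box, and, for an E2F-type site, TTCCCGC or TTGGCGC or TTCGCGC or TTGCCGC. The string TTGGCGC shares letters with a reversed CCAAT box wherever an A comes before it. A CHR was present in 36 of 49 member windows (73.5%), against 14.1% of 8444 measured genes and 19.4% of 27025 genes in the table. Within 50 bases of the start the share was 65.3% of members, against 3.72% of measured genes. A CCAAT box was present in 73.5% of member windows and 39.1% of those of measured genes, and both elements together in 61.2% and 5.83%. E2F-type letters were found in 24.5% of member windows and 18.1% of those of measured genes. The windows of members had a median GC content of 59%, against 61% for measured genes. A match is a string of letters and not a bound site.

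The windows of 6 members are printed from 150 bases before to 30 bases after the start, because they hold the same elements and yet differ in their ratios, and were picked after those were seen. *Ttk*, *Bub1* and *Kif11* were called higher, *Cdk1* lay below the threshold, *Ccnb2* near 0 and *Cdc20* below 0. Each is written 5′ to 3′ on the strand of the gene, and capitals mark the CHR, which is TTTGAA or TTCGAA or, on the other strand, TTCAAA, and the CCAAT box, which reads ATTGG where it lies on the other strand. The positions are chr9:83834539-83834718 on the plus strand for *Ttk*, chr2:127831830-127832009 on the minus strand for *Bub1*, chr19:37376232-37376411 on the plus strand for *Kif11*, chr10:69352883-69353062 on the minus strand for *Cdk1*, chr9:70421525-70421704 on the minus strand for *Ccnb2* and chr4:118437314-118437493 on the minus strand for *Cdc20*.
Ttk: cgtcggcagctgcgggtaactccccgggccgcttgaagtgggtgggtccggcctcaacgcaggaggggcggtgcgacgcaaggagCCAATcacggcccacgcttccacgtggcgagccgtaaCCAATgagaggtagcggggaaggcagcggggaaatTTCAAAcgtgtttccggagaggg
Bub1: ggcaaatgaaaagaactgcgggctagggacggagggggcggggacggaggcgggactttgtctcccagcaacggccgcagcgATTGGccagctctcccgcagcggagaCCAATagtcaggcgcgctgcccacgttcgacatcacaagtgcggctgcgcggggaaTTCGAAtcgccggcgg
Kif11: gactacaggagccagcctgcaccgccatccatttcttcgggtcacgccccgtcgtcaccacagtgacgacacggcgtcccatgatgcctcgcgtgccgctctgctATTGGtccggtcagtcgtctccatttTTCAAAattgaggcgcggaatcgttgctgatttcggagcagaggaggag
Cdk1: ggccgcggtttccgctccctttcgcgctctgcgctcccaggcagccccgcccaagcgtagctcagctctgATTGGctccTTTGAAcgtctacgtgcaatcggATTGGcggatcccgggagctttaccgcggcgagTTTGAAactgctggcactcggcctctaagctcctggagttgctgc
Ccnb2: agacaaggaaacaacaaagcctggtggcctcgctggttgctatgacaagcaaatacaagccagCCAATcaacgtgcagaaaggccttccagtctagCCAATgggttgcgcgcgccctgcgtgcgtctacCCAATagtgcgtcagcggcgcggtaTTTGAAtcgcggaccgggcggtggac
Cdc20: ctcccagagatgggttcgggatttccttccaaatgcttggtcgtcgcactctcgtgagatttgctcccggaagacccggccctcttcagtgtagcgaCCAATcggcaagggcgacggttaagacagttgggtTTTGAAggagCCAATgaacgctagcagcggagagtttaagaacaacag

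In these windows a CCAAT box stood upstream of a CHR in all 6 genes. Counted from the start, with positions before it negative, the CHR was centred at 10 in *Ttk*, 17 in *Bub1*, -16 in *Kif11*, 7 in *Ccnb2* and -15 in *Cdc20*. *Cdk1* held 2, at -68 and -12. Only *Bub1* carried the palindromic form TTCGAA. A CHR with CCAAT boxes was present in the member with the highest ratio, *Ttk*, and in *Cdc20*, whose probe sets were all lower with *Flcn* siRNA. The 6 genes were picked for that contrast, so it is no finding, and a part of these elements in the ratios was not tested.

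Across the members, the presence of a CHR went with small differences in the ratio. The median log2 ratio was 0.40 over 35 measured members with a CHR and 0.29 over 12 without one, and their ranges overlapped. The share called higher went the other way, with 5 of the 35 against 3 of the 12. With both CHR and CCAAT box the median was 0.41 over 30 members, against 0.27 over 17 without the pair. Members with E2F-type letters had a median of 0.45 over 10, against 0.30 over 37 without. By role, a CHR was found in 7 of 7 kinesin windows, 7 of 9 checkpoint and anaphase windows, 5 of 6 condensin and topoisomerase windows, 3 of 4 spindle protein windows and 3 of 3 cytokinesis windows. The cyclin and kinase windows held one in 4 of 5 and the passenger complex in 1 of 2. The kinetochore genes stood lower with 6 of 13, and *Nuf2*, *Cenpi* and *Cenph*, which were called higher, were among those without one. *Mad2l1* and *Cenpq* had none either. The members without a CHR held both the second-highest ratio and the lowest, and a link between CHR and ratio was not tested.

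**Figure D2:**
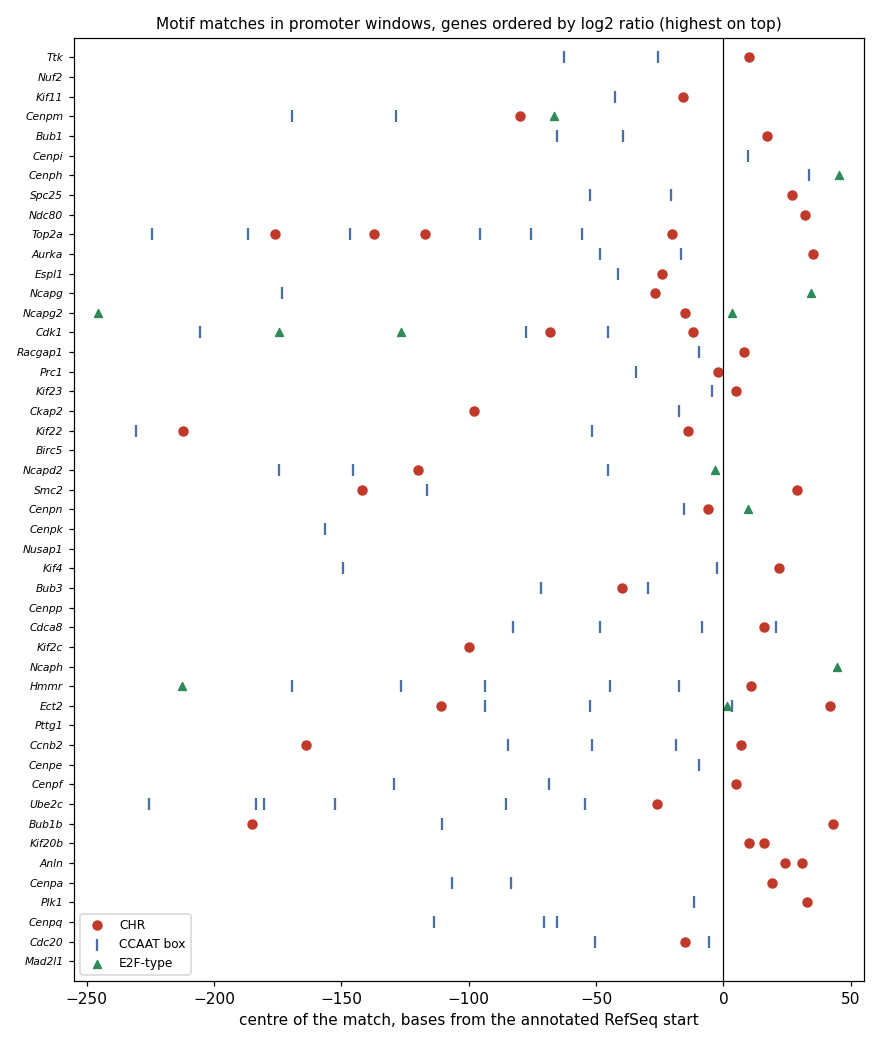
Positions of CHR (red points), CCAAT box (blue bars) and E2F-type letters (green triangles) in the promoter windows of measured members, as the centre of each match in bases from the annotated RefSeq start, with genes ordered from the highest log2 ratio at the top to the lowest. The red points gather within 50 bases of the start all the way down the order, from *Ttk* (log2 ratio 0.82) to *Cdc20* (-0.15).

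Among the cyclins and mitotic kinases, 1 of 5 measured genes was called higher (20%, against 5.85% of all measured genes). The median log2 ratio of the group was 0.50. *Ccna2*, which encodes cyclin A2 of S phase and early mitosis, had a signal of 738 with *Flcn* siRNA and 477.8 with scramble siRNA, a log2 ratio of 0.63, and its other probe set gave 0.62. *Cdk1*, the kinase that drives entry into mitosis, had a signal of 859.4 with *Flcn* siRNA and 608.4 with scramble siRNA (log2 ratio 0.50). *Aurka*, a spindle pole kinase, was at 491 with *Flcn* siRNA and 338.9 with scramble siRNA (0.53). *Ccna2*, *Cdk1* and *Aurka* therefore differed by about the same ratio, while the other measured genes of the group did not. *Ccnb2*, a B-type cyclin, differed less, with 841.1 with *Flcn* siRNA and 754.4 with scramble siRNA (0.16). *Plk1*, a kinase of centrosome maturation and spindle assembly, was the lowest of the group, with 267.4 with *Flcn* siRNA and 259.9 with scramble siRNA (0.04), a difference smaller than the spread between probe sets.

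The spindle checkpoint and anaphase genes were divided. Of 9 genes, 2 were called higher (22.2%, against 5.85% of all measured genes). Another 2 lay below 0, and the median log2 ratio was 0.16. *Ttk*, which encodes the kinase Mps1 that starts checkpoint signalling at unattached kinetochores, had a signal of 208 with *Flcn* siRNA and 118.1 with scramble siRNA, a log2 ratio of 0.82. Its dimmer probe set had 24.9 with *Flcn* siRNA and 19.9 with scramble siRNA (0.32). *Bub1*, a checkpoint kinase that also marks centromeric histone H2A, had 1259.9 with *Flcn* siRNA and 754.6 with scramble siRNA (0.74). Its dim probe set, at 34 with *Flcn* siRNA and 29.8 with scramble siRNA, gave 0.19, so both calls in this group rested on the brighter probe set. *Espl1*, the separase that opens cohesin, had 204 with *Flcn* siRNA and 142.1 with scramble siRNA (0.52).

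*Mad2l1* and *Cdc20* had ratios below 0, while the checkpoint genes *Bub1b* and *Bub3* lay above 0 at their brightest probe sets. *Mad2l1*, which encodes the inhibitor Mad2, had a signal of 674.4 with *Flcn* siRNA and 939.6 with scramble siRNA, a log2 ratio of -0.48 that fell short of 1.5-fold. It has a single probe set over the filter, so that no second measurement of it was at hand. *Cdc20*, the activator of the anaphase-promoting complex that Mad2 binds, had 1275.6 with *Flcn* siRNA and 1419.6 with scramble siRNA (-0.15). Its other probe sets gave log2 ratios of -0.07 and -0.52, so that 3 of 3 lay below 0. *Bub1b*, which encodes the checkpoint protein BubR1, gave 0.12 at the brighter and -0.08 at the dimmer probe set, and had no settled side. *Bub3*, the partner of Bub1 and BubR1, ran from 0.12 to 0.28 over 4 probe sets. *Pttg1*, which encodes securin, the inhibitor of separase, gave 0.16, and *Ube2c*, the ubiquitin-conjugating enzyme of the anaphase-promoting complex, gave 0.13. Securin and separase thus lay on the same side of 0, and the larger log2 ratio was that of separase.

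The 4 genes of the chromosomal passenger complex, which corrects wrong attachments and later acts at the central spindle, had log2 ratios above 0 at each of their probe sets over the filter. *Aurkb*, its kinase, had 378.5 with *Flcn* siRNA and 245.1 with scramble siRNA (log2 ratio 0.63), and 230.6 with *Flcn* siRNA and 137.7 with scramble siRNA at its other probe set (0.74). *Aurkb* was the only member of the 4 called higher (25%, against 5.85% of all measured genes), and it was so at both probe sets. *Incenp*, the scaffold, had 1380.2 with *Flcn* siRNA and 957.7 with scramble siRNA (0.53), with 0.38 to 0.59 over its 4 probe sets. *Birc5*, or survivin, had 820.6 with *Flcn* siRNA and 610.3 with scramble siRNA (0.43). *Cdca8*, or borealin, was the lowest, with 814.6 with *Flcn* siRNA and 679.6 with scramble siRNA (0.26), though its other probe sets gave 0.34 and 0.58.

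The kinetochore genes held 5 of the 10 members called higher, out of 14 measured, with a median log2 ratio of 0.48. Their share called higher was 35.7%, against 5.85% of all measured genes. The Ndc80 complex, the rod that grips microtubules, was even. *Nuf2* had a signal of 340.8 with *Flcn* siRNA and 198.9 with scramble siRNA (log2 ratio 0.78), and *Spc25* had 351.2 with *Flcn* siRNA and 231.1 with scramble siRNA (0.60). *Spc24* at 0.58 and *Ndc80* at 0.56 lay just under the threshold, so the 4 subunits spanned 0.56 to 0.78. Among genes of the inner, constitutive centromere network, *Cenpm* had 142.6 with *Flcn* siRNA and 85 with scramble siRNA (0.75). *Cenpi* had 178.5 with *Flcn* siRNA and 112 with scramble siRNA (0.67). *Cenph* had 127.3 with *Flcn* siRNA and 82.7 with scramble siRNA (0.62). All 3 were called higher on a single probe set each. *Cenpn* (0.39), *Cenpk* (0.34) and *Cenpp* (0.27) were intermediate. *Cenpq*, of the same network, was the kinetochore gene below 0, with 240.1 with *Flcn* siRNA and 261 with scramble siRNA (-0.12).

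*Cenpa*, the histone H3 variant that marks the centromere, had a signal of 841.3 with *Flcn* siRNA and 810.8 with scramble siRNA (log2 ratio 0.05). A dimmer probe set of *Cenpa* had 45.9 with *Flcn* siRNA and 70.8 with scramble siRNA, and its log2 ratio of -0.63 made it the only member probe set called lower. *Cenpa* therefore has no settled side. *Cenpe*, a kinetochore motor, gave 0.14 at both probe sets. *Cenpf*, of the outer kinetochore, gave 0.14 at its brightest probe set, which had 339.9 with *Flcn* siRNA and 308.9 with scramble siRNA. Its 2 dim probe sets gave 0.62 and 0.82, so that its size depended on the probe set and its side did not.

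All 7 measured mitotic kinesins lay above 0 around a median log2 ratio of 0.42, and 1 was called higher (14.3%, against 5.85% of all measured genes). *Kif11*, the motor that pushes the spindle poles apart, had 193.6 with *Flcn* siRNA and 113.8 with scramble siRNA (log2 ratio 0.77). Its other probe sets had 150.7 and 161.5 with *Flcn* siRNA, against 96.2 and 89.6 with scramble siRNA (0.65 and 0.85). *Kif11* was thus past 1.5-fold at 3 of 3 probe sets. *Kif20b*, a motor of late cytokinesis, was the lowest, with 134.1 with *Flcn* siRNA and 123.4 with scramble siRNA (0.12), but 50.5 with *Flcn* siRNA and 25.5 with scramble siRNA at a dimmer probe set (0.99). *Kif23*, the motor of centralspindlin, had 701.5 with *Flcn* siRNA and 519.6 with scramble siRNA (0.43), and 204.7 with *Flcn* siRNA and 112.2 with scramble siRNA at its other probe set (0.87). The chromosome-arm motors *Kif22* (0.43) and *Kif4* (0.29) and the central spindle motor *Kif20a* (0.42) were alike in not reaching the threshold at their brightest probe sets. *Kif2c*, a microtubule depolymerase, gave 0.24 at its brightest probe set and from -0.17 to 0.81 over all 4, the lowest coming from a probe set with signals of 16.4 with *Flcn* siRNA and 18.4 with scramble siRNA.

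The spindle proteins, condensin with topoisomerase and the cytokinesis genes held no member called higher at its brightest probe set, although all 15 lay above 0. Over all measured genes, 5.85% were called higher. Among spindle proteins the median log2 ratio was 0.30. *Prc1*, which bundles the microtubules of the central spindle, had the highest ratio, with 310 with *Flcn* siRNA and 225.2 with scramble siRNA (0.46). *Tpx2*, the activator of Aurora A, had the lowest, with 429.8 with *Flcn* siRNA and 385 with scramble siRNA (0.16), while its 3 dimmer probe sets gave 0.23, 0.42 and 0.81. The microtubule-binding proteins *Ckap2* and *Nusap1* gave 0.43 and 0.30. *Hmmr*, a spindle pole protein, gave 0.18 to 0.40 over 5 probe sets.

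Condensin and topoisomerase genes formed an even group, where 7 of 7 genes lay above 0 around a median log2 ratio of 0.48. *Top2a*, the topoisomerase that untangles sister chromatids, had 1391.2 with *Flcn* siRNA and 943.5 with scramble siRNA (0.56), and 0.58 at its other probe set. *Smc4*, an ATPase subunit of both condensins, had 1009.4 with *Flcn* siRNA and 723.7 with scramble siRNA (0.48), and 1078.6 with *Flcn* siRNA and 643.4 with scramble siRNA at its second probe set (0.75). Its partner *Smc2* had 1001.1 with *Flcn* siRNA and 759.7 with scramble siRNA (0.40). *Smc2* was past the threshold at 2 further probe sets and below 0 at 1, whose signals of 14.4 with *Flcn* siRNA and 18.7 with scramble siRNA were close to the array medians. Of the condensin I subunits, *Ncapg* gave 0.52, *Ncapd2* 0.40 and *Ncaph*, the lowest of the group, 0.20, from 376.4 with *Flcn* siRNA and 327.4 with scramble siRNA. *Ncaph* reached 0.69 at its other probe set, with 275.3 with *Flcn* siRNA and 170.4 with scramble siRNA. *Ncapg2*, of condensin II, gave 0.51, so subunits of both complexes lay on the same side.

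The cytokinesis genes had a median log2 ratio of 0.17. *Racgap1*, the GTPase-activating subunit of centralspindlin, was the highest, with 452.2 with *Flcn* siRNA and 325.6 with scramble siRNA (0.47), and gave 0.10 at its other probe set. *Ect2*, the activator of RhoA at the cleavage furrow, gave 0.17. *Anln*, which encodes the scaffold anillin, had 1368.9 with *Flcn* siRNA and 1289.6 with scramble siRNA (0.09), and 0.50 at its other probe set. Neither probe set of *Anln* reached the threshold.

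Taking every probe set of the members over the filter, 98 of 107 lay above 0, 26 were 1.5-fold or more higher and 1 was lower. The matching shares over the probe sets of all genes were not computed. Of the 32 members with several such probe sets, 28 had them all on one side of 0, against 2783 of 5034 genes in the whole table. The members were chosen on these signals and had a median log2 ratio of 0.41, against 0.01 over all measured genes. Genes near 0 more readily have probe sets on both sides, so these counts do not compare how well probe sets agree. For 7 members every probe set over the filter was past the threshold. These were *Ccna2*, *Aurkb*, *Kif11*, *Nuf2*, *Cenpm*, *Cenpi* and *Cenph*, and the last 4 have 1 probe set each. For 20 members at least 1 probe set was past it, a count that rises with the number of probe sets per gene. Neither count has a share over all genes beside it. The brightest probe set gave the lowest ratio of its gene in 11 of the 32 members and the highest in 12, so that the choice of the brightest leaned to neither side.

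**Figure D3:**
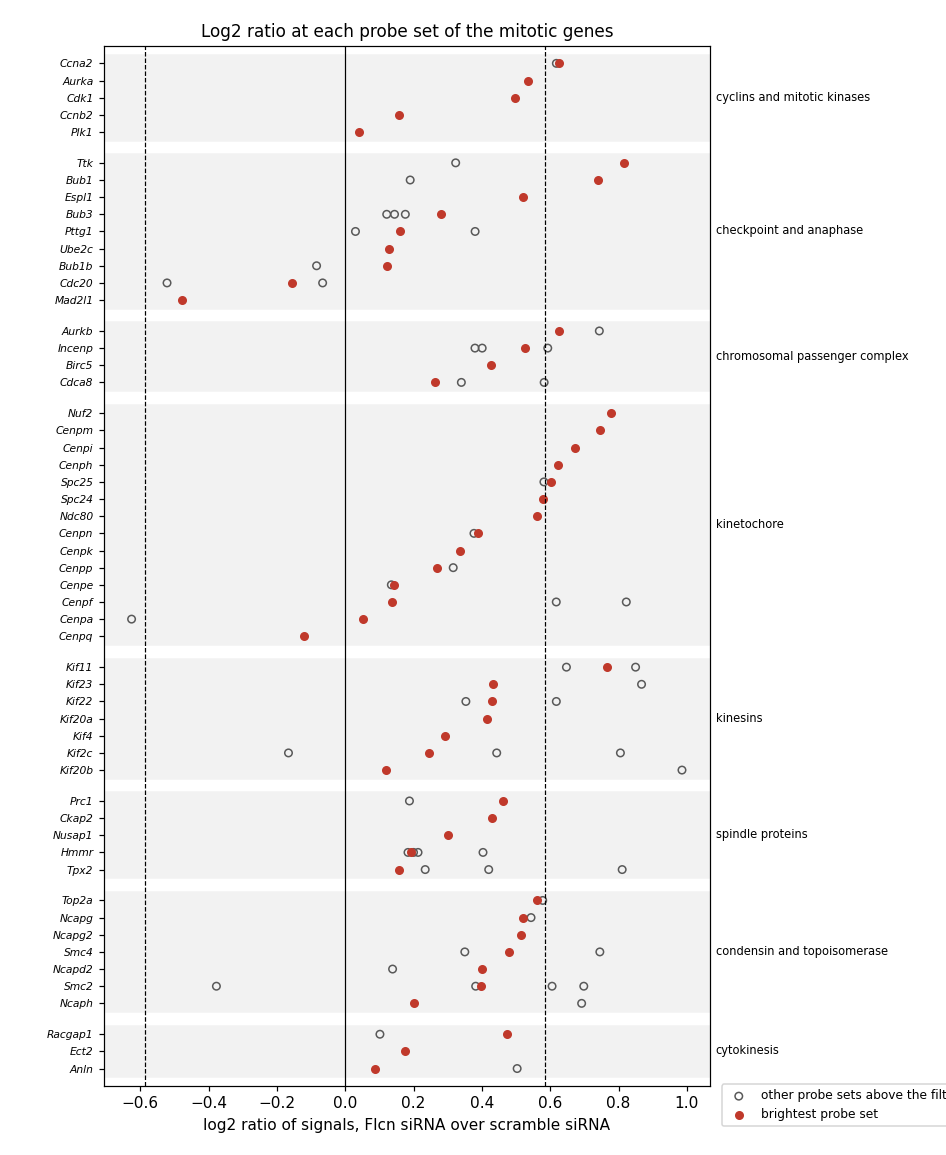
Log2 ratio of signals, *Flcn* siRNA over scramble siRNA, at the brightest probe set (red) and at the other probe sets over the filter (open circles) of each measured mitotic gene, by role. Dashed lines mark 1.5-fold in each direction, and 98 of 107 points lie to the right of 0.

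Related genes outside the set were grouped in lists of their own, drawn up with results of these arrays known. Over 145 measured genes of 7 further lists on mitosis, 28 were called higher and 2 lower, and their median was 0.31 on the log2 scale. The share called higher was 19.3%, against 5.85% of all measured genes. Ratios of 118 lay above 0, or 81.4%, against 51.7% of all measured genes. The remaining kinetochore genes resembled the members, with 6 of 20 called higher and a median of 0.49. They were led by *Dsn1*, a subunit of the Mis12 complex that anchors Ndc80, with 144.8 with *Flcn* siRNA and 74 with scramble siRNA (log2 ratio 0.97). *Knl1*, the platform that Bub1 binds, gave 0.88, while *Mis12* gave -0.04 and *Zwint* 0.04. Of the remaining motor and spindle genes, 10 of 27 were called higher, with a median of 0.41. The highest was *Haus8*, of the augmin complex that branches microtubules, with 214.4 with *Flcn* siRNA and 103.5 with scramble siRNA (1.05).

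The remaining mitotic regulators had 6 of 26 genes called higher (23.1%, against 5.85% of all measured genes) and a median log2 ratio of 0.39. *Melk*, a kinase of dividing cells, had 239.7 with *Flcn* siRNA and 113.2 with scramble siRNA (1.08). *Mybl2*, the B-Myb factor that joins MuvB on mitotic promoters, had 134 with *Flcn* siRNA and 67.3 with scramble siRNA (0.99). *Wee1*, the kinase that holds Cdk1 inactive, gave 0.82, so a restraint on entry lay on the same side as its target. The remaining checkpoint and anaphase-promoting complex genes, like the checkpoint members, were low and divided, with a median of 0.15. Of 23 genes, 2 were called higher (8.7%, near the 5.85% of all measured genes) and 1 lower. In the complex that recruits Mad1 and dynein to kinetochores, *Zwilch* had 375.4 with *Flcn* siRNA and 194.4 with scramble siRNA (0.95), whereas *Zw10*, which also serves membrane traffic, had 792.6 with *Flcn* siRNA and 1202.4 with scramble siRNA (-0.60). The call of *Zw10* rests on that probe set, since the log2 ratio of Zw10 was -0.17 as a mean over its probe sets and -0.13 with those unique to 1 transcript.

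Cohesin and condensin II genes had a median log2 ratio of 0.26, with 3 of 18 called higher and 1 lower. The share called higher was 16.7%, against 5.85% of all measured genes, of which 5.52% were called lower. The gene called lower was *Hdac8*, with 13.8 with *Flcn* siRNA and 27.4 with scramble siRNA, signals close to the array medians. *Esco2*, the cohesin acetyltransferase of S phase, had 181 with *Flcn* siRNA and 77.3 with scramble siRNA (1.23), and *Cdca5*, which encodes sororin, gave 0.92. *Rad21*, a core cohesin subunit, gave -0.18. Centriole duplication genes had 1 of 14 called higher, *Stil* at 0.71, and a median of 0.25. That share, 7.14%, is near the 5.85% of all measured genes. Medians of a further pair of lists lay near that of all genes. Kinesins of interphase transport had 1 of 19 called higher and 4 lower, with a median of 0.00. Of all measured genes, 5.85% were called higher and 5.52% lower. *Kif5a*, a motor of axonal transport, had 81.8 with *Flcn* siRNA and 163.8 with scramble siRNA. Other calls came from dim signals. *Kif7* had 30.7 with *Flcn* siRNA and 56.8 with scramble siRNA, and *Kif5c* had 11.2 with *Flcn* siRNA and 26.8 with scramble siRNA. *Kif17*, the gene called higher, had 28.9 with *Flcn* siRNA and 18.5 with scramble siRNA. The remaining cytokinesis genes, many of which also serve membrane traffic or the cell cortex, had 0 of 17 called in either direction and a median of -0.01.

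Genes of the preceding S phase had larger ratios than the mitotic genes. Of 56 measured replication licensing and fork genes, 31 were called higher, with a median log2 ratio of 0.64, against 10 of 54 and 0.41 for the mitotic genes. The shares called higher were 55.4% and 18.5%, against 5.85% of all measured genes. *Cdc7*, the kinase that fires origins, had 167 with *Flcn* siRNA and 82.1 with scramble siRNA (1.02). Recombination and Fanconi genes lay between, with 16 of 33 called higher (48.5%) and a median of 0.52. With 1 array per condition the difference between these lists was described and not tested.

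**Figure D4:**
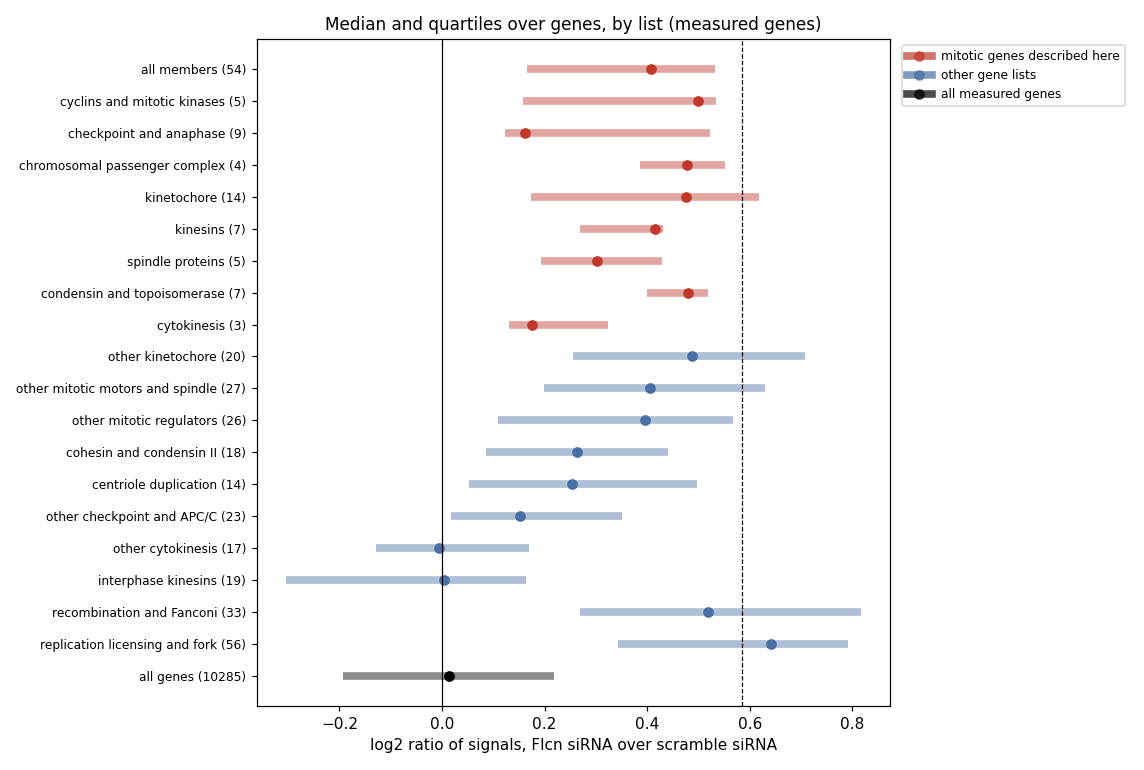
Median (points) and quartiles (bars) of the log2 ratio, *Flcn* siRNA over scramble siRNA, over the measured genes of the mitotic set and its 8 role groups (red), of 10 other gene lists (blue) and of all 10285 measured genes (black), with the number of genes in brackets. The dashed line marks 1.5-fold, and medians run from -0.01 for other cytokinesis genes to 0.64 for replication genes, with 0.41 for the mitotic set.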

How the data were processed

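The deposited values are linear signal intensities, 1 for each probe set on each array, which the authors obtained with GCOS. The table used holds no detection calls. The mean signal with 2% of probe sets left out at each end was 100 on both arrays, while the sources used here do not give the scaling settings. Of 45101 probe sets, 34958 have 1 gene in the platform annotation and 932 several, which were left out along with 64 controls, and 34754 matched RefSeq GRCm38.p6 by Entrez ID. Each gene took the values of its brightest probe set (by geometric mean over both arrays). Signals under the array median (13.6 with *Flcn* siRNA, 12.8 with scramble siRNA) were set to that median. Log2 ratios are *Flcn* siRNA over scramble siRNA. Genes whose geometric mean reached 13.2 were kept. The number of arrays, 1 per condition, limits the precision. For the 4 members with several promoter windows, the first was used.

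The members and the gene lists were chosen with earlier results of these data known. Signals are printed for members at 1.5-fold or more, members below 0, and the highest and lowest of each role, and of other lists some of the 3 highest and 3 lowest genes are named. Other values were picked as examples after they were seen. Results were recomputed with quantile normalization or equal array medians, with a mean over probe sets or those unique to 1 transcript, with the floor removed or set to the 25th percentile, with the filter removed or set to the 75th, and with thresholds of 1.3-fold and 2-fold. The calculations were tested on simulated data. Software was matplotlib 3.10.9, scipy 1.17.1, pandas 2.3.3, numpy 2.4.6 and Python 3.11.15.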

Additional observations from a re-analysis of the deposited data

How the results depend on the processing

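The median log2 ratio of the mitotic genes stayed between 0.32 and 0.42 under the alternatives run, and each of the 8 role medians stayed above 0. With both arrays scaled to equal medians, 6 members were called higher, and *Aurkb*, *Ccna2*, *Cenph* and *Spc25* were lost. That scaling put 418 genes of the whole table higher and 807 lower, against 602 and 568 with the deposited scaling, and moved the median of all genes to -0.07. Quantile normalization, no floor, the lower floor and both other filters kept the same 10 members. The mean of probe sets called 9, without *Bub1* and *Ttk* and with *Kif23*. Probe sets unique to 1 transcript measured 45 members and called 8 higher, of which 6 were shared, and 1 lower, *Cenpa*. Calls of *Aurkb*, *Cenph* and *Nuf2* were lost because they have no such probe set, and *Spc25* fell to 0.58. *Kif20b* and *Ncaph* were gained. Those probe sets also turned *Rad52*, a recombination gene, to 0.13. At 1.3-fold, 30 members were higher and 1, *Mad2l1*, lower, in a table with 1384 genes higher and 1265 lower. At 2-fold 0 members were higher, with 87 genes higher and 113 lower in the table. The filter at the 75th percentile left 214 genes higher and 268 lower. Leaving out a replicate was not run, since each condition has 1 array. No paired analysis was possible because each condition has 1 array.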
